A study of Mus musculus with 6 samples.

Results

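The 10 genes described here encode enzymes that make eicosanoids, the signalling lipids derived from arachidonic acid. They were chosen by name (Ptgs1, Ptgs2, Ptges, Hpgds, Tbxas1, Alox5, Alox5ap, Alox15, Lta4h and Ltc4s), with earlier results of these data known. All 10 were found among the 40564 genes of the deposited tables. Bulk RNA was sequenced from BALF cells, immune cells that bronchoalveolar lavage rinses from the mouse airspaces. The 6 libraries formed 3 genotypes of 2 libraries each. Cis Stat6 KO, labelled as a double knockout, lacks STAT6 in addition to CIS. Cis KO lacks CIS, the protein of the gene Cish, a feedback inhibitor of cytokine receptor signalling, and WT is the wild type. STAT6 carries the signals of interleukin 4 and interleukin 13 to the nucleus. All cells were untreated and carry 1 date in the labels, and a STAT6 knockout with intact CIS was not analysed here. The labels do not say how the alleles were made, whether animals were pooled, or whether the replicates came from separate animals, so p-values measure the spread between these libraries, which may be technical.

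Eicosanoid synthesis starts when phospholipases free arachidonic acid from membranes. The cyclooxygenases Ptgs1 and Ptgs2 turn it into prostaglandin H, from which terminal synthases make prostaglandin E (Ptges), prostaglandin D (Hpgds) and thromboxane (Tbxas1). In the other branch Alox5, which needs the membrane protein Alox5ap, makes leukotriene A, which Lta4h converts to leukotriene B and Ltc4s to the cysteinyl leukotrienes. Alveolar macrophages are known as a source of leukotriene B and prostanoids in the airspace, and Ptgs2 is the cyclooxygenase that inflammatory signals induce.

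The genotype labels matched the targeted genes. Cish stood at 1.72 and 5.04 CPM in the Cis Stat6 KO libraries, 4.34 and 3.52 in Cis KO, and 46.2 and 56.2 in WT, where CPM is the read count scaled to the library total with TMM factors. Stat6 stood at 31.6 and 25.5 CPM in Cis Stat6 KO, 264 and 221 in Cis KO, and 233 and 227 in WT. The library totals were 50762354 to 65937118 counts. Cis KO replicate 2 stood apart, with 15855 genes detected against 19641 to 20431 in the other 5 libraries and 3.29% of its counts on haemoglobin genes against at most 0.0366%. All 10 alveolar macrophage markers examined had reads in every library, with a summed level of 30480 and 39760 CPM in Cis Stat6 KO, 18770 and 14320 in Cis KO, and 14770 and 22320 in WT. The largest part of that sum in every library was Chil3, a chitinase-like protein. It stood at 22280 and 31130 CPM in Cis Stat6 KO, 11570 and 6881 in Cis KO, and 8777 and 15010 in WT. Siglecf and Ear2 were at log2 fold changes of -0.21 each in Cis Stat6 KO against WT. Over the 10 markers the range was -0.21 to 1.17, with a median of 0.31. Without overlap, Cis Stat6 KO lay above WT for 7 of the 10 and below for 0. Over all genes these shares were 23.3% and 23.5%. Enzyme values that rest on Cis KO replicate 2 are also given without it.

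Expressed per transcript length, the 3 genes with the highest levels belonged to the leukotriene branch. In FPKM, read counts that the authors scaled to gene length and library total, Alox5ap led all 10 genes in every library, with 291 and 235 in Cis Stat6 KO, 367 and 465 in Cis KO, and 351 and 320.2 in WT. Among all 40564 genes its mean level in WT ranked 128. Ltc4s followed at 57.2 ± 13.9 FPKM (SD, n = 2) in Cis Stat6 KO, 107 ± 45.5 in Cis KO and 56.5 ± 10.3 in WT. Alox5 stood at 39.5 and 24.0 FPKM in Cis Stat6 KO, 70.9 and 59.8 in Cis KO, and 38.2 and 39.3 in WT, and in every library it was below Ltc4s. The library ranges of Ltc4s and Alox5 did not overlap within any genotype, and came closest in Cis KO replicate 1, at 74.5 and 70.9 FPKM. Tbxas1 and Lta4h were intermediate, from 10.8 to 20.9 FPKM over all libraries, and their order was not the same in all of them. Tbxas1 was higher in both WT libraries, at 15.7 and 19.2 FPKM against 10.8 and 11.3 for Lta4h, and Lta4h was higher in both Cis Stat6 KO libraries, at 20.7 and 16.4 against 16.2 and 13.6 for Tbxas1. Ptges ranged from 2.92 to 8.47 FPKM. Ptgs1, Hpgds, Ptgs2 and Alox15 stood at 2.70 FPKM or less in every library, and their order differed between the libraries of each genotype.

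**Figure D1:**
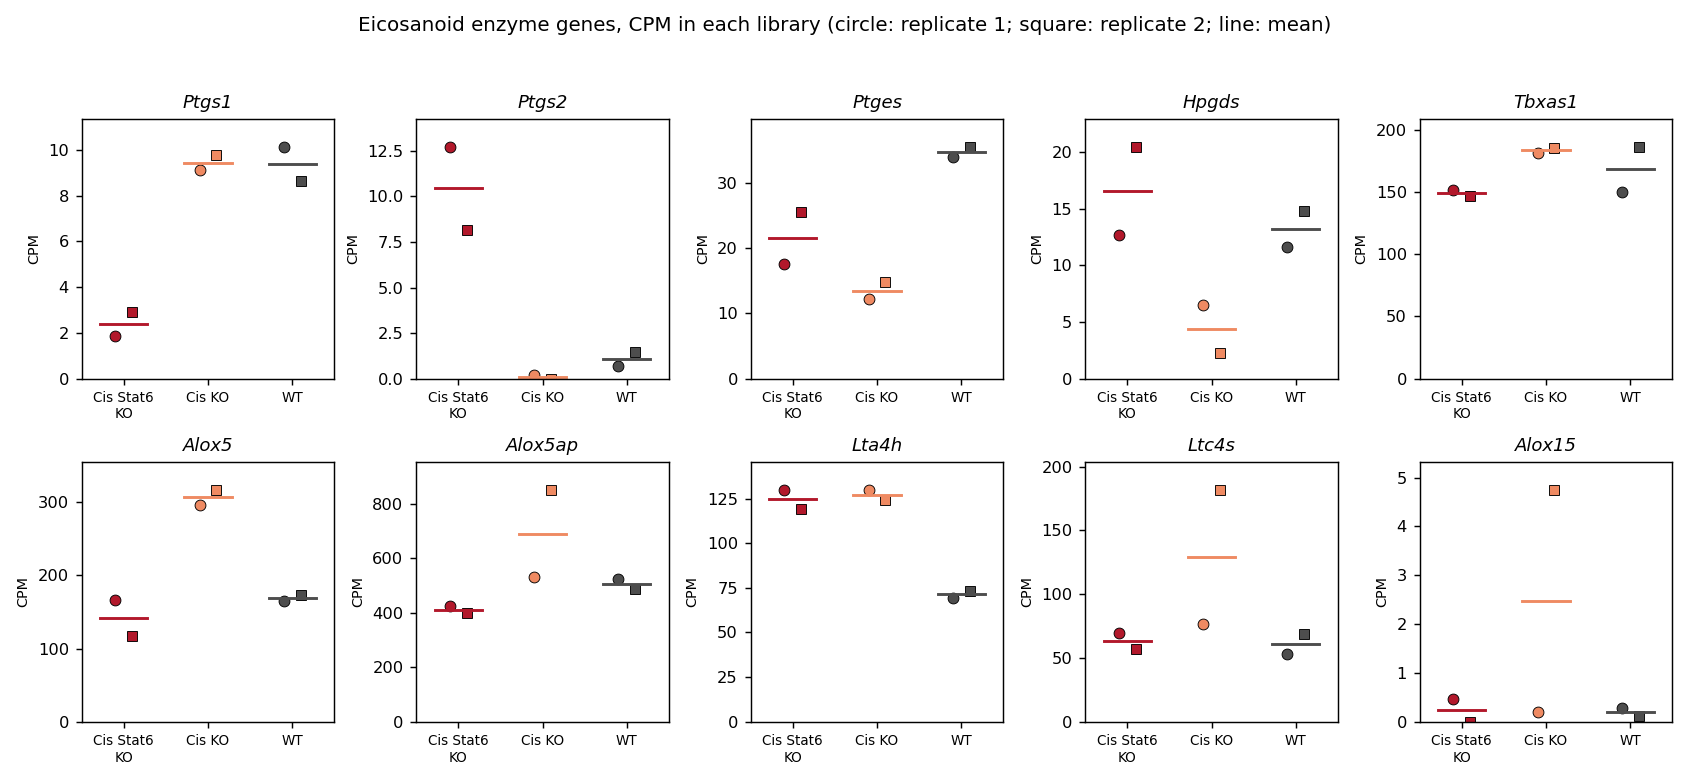
CPM of the 10 enzyme genes in each library (vertical axes, linear, each from 0; columns: Cis Stat6 KO, Cis KO, WT; circle, replicate 1; square, replicate 2; line, mean of 2). Ptgs2 stood at 12.7 and 8.16 CPM in Cis Stat6 KO and at most 1.43 elsewhere, whereas Ptgs1 was lowest in Cis Stat6 KO, at 1.86 and 2.90.

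The cyclooxygenase genes took opposite levels in Cis Stat6 KO. Ptgs2 (ENSMUSG00000032487, mm10 chromosome 1, 150100031 to 150108227, + strand) had 882 and 397 counts in Cis Stat6 KO, 11 and 0 in Cis KO, and 40 and 98 in WT. These counts correspond to 12.7 and 8.16 CPM in Cis Stat6 KO, 0.172 and 0 in Cis KO, and 0.690 and 1.43 in WT. The 3 genotypes did not overlap, and a count of 0 in Cis KO replicate 2 allows a level of up to 0.0685 CPM (3 counts, counting error only). For Ptgs2 the log2 fold change came to 6.78 ± 1.19 (SE, 2 libraries in each group) in Cis Stat6 KO against Cis KO, 3.30 ± 0.98 in Cis Stat6 KO against WT and -3.48 ± 1.07 in Cis KO against WT. With edgeR's quasi-likelihood test and Benjamini-Hochberg adjustment over the 16765 genes tested, the adjusted p was 0.0905, 0.608 and 0.413, so that none passed 0.05. DESeq2 gave adjusted p of 2.18e-13, 0.000491 and 0.00243 for the same comparisons.

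Ptgs1, the constitutive cyclooxygenase (ENSMUSG00000047250, mm10 chromosome 2, 36230426 to 36252272, + strand), was lower in Cis Stat6 KO. It stood at 1.86 and 2.90 CPM there, against 9.11 and 9.77 in Cis KO and 10.1 and 8.64 in WT. The Cis Stat6 KO libraries lay below the other 4, among which Cis KO and WT overlapped. Ptgs1 had a log2 fold change of -1.99 ± 0.35 in Cis Stat6 KO against Cis KO and of -1.98 ± 0.35 against WT, with edgeR adjusted p of 0.0925 and 0.175. In Cis KO against WT it was 0.01 ± 0.34, with an adjusted p of 0.995.

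Both cyclooxygenase genes, without Cis KO replicate 2, passed the edgeR test in Cis Stat6 KO against Cis KO, Ptgs2 at 5.90 ± 0.71 (adjusted p 0.00857) and Ptgs1 at -1.95 ± 0.34 (0.0299). Leaving out Cis KO replicate 1 also brought both past it (adjusted p 0.00126 and 0.00436), but the remaining Cis KO library had 0 Ptgs2 counts, and the fitted log2 fold change of 12.2 is then no stable size. Either omission leaves 1 library in that group, which is then assumed to vary like the other genotypes, and without replicate 1 as many as 32.2% of all genes were called. The comparison of Cis Stat6 KO with WT does not contain Cis KO, but all genotypes share 1 estimate of the spread. There, Ptgs2 without Cis KO replicate 2 was at 3.29 ± 0.44 and Ptgs1 at -1.99 ± 0.29, with adjusted p of 0.0122 and 0.0178. Without Cis KO replicate 1 the adjusted p was 0.0173 and 0.0221, and with only Cis Stat6 KO and WT in the fit it was 0.022 and 0.0338. In that comparison neither gene passed without WT replicate 1 (adjusted p 1 for Ptgs2 and 1 for Ptgs1), WT replicate 2 (1 and 0.921), Cis Stat6 KO replicate 1 (1 and 0.692) or Cis Stat6 KO replicate 2 (1 and 0.728), nor with RLE size factors (0.585 and 0.175) or on FPKM. Against Cis KO, too, neither passed without any 1 of these 4 libraries (adjusted p 0.136 to 0.485 for Ptgs2 and 0.249 to 0.450 for Ptgs1). In Cis Stat6 KO against WT both genes passed with limma-voom quality weights and with edgeR without a filter on low counts. Against Cis KO, limma-voom called neither, edgeR without that filter called both, and filtered FPKM called Ptgs2 but not Ptgs1. In bulk RNA, fewer cells of a type and less RNA per cell cannot be told apart.

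Per length, the share of Ptgs2 in the summed FPKM of the cyclooxygenase genes was 85.4% and 70.6% in Cis Stat6 KO, 1.29% and 0% in Cis KO, and 5.36% and 12.3% in WT. The sum itself was 3.16 and 2.11 FPKM in Cis Stat6 KO, 2.32 and 1.94 in Cis KO, and 2.61 and 2.36 in WT. In the sum Cis Stat6 KO overlapped both other genotypes, and in the share no genotypes overlapped. With 2 libraries per genotype no exact permutation test between 2 genotypes can reach 0.05, so the share is given as a description.

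**Figure D2:**
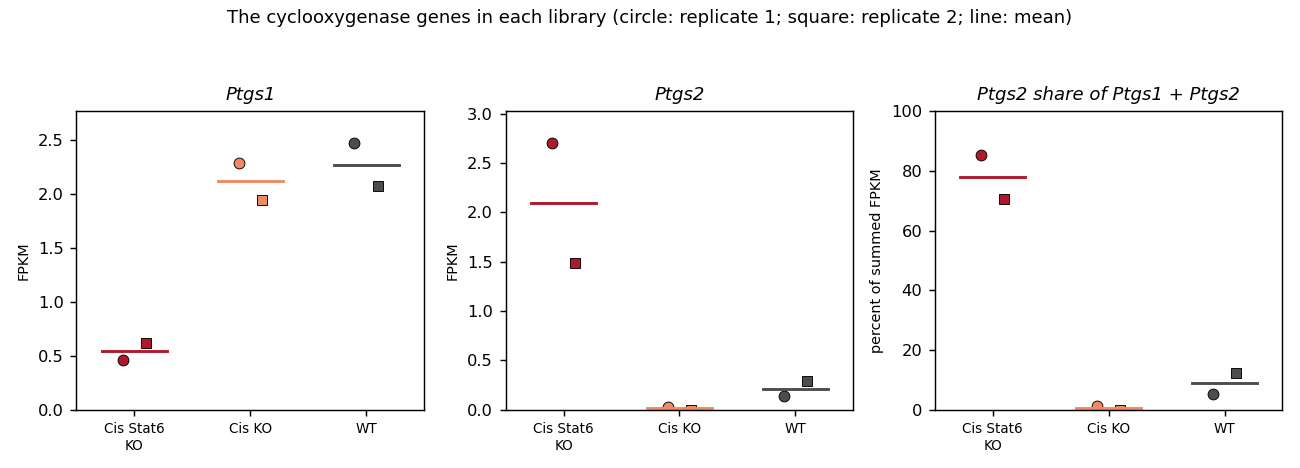
FPKM of Ptgs1 and of Ptgs2 and the share of Ptgs2 in their sum (percent) in each library (columns: Cis Stat6 KO, Cis KO, WT; circle, replicate 1; square, replicate 2; line, mean of 2). The share was 85.4% and 70.6% in Cis Stat6 KO, at most 1.29% in Cis KO and at most 12.3% in WT.

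Neutrophils are known to induce Ptgs2 and platelets to carry Ptgs1, so the markers of these cells are given beside both genes. All 6 neutrophil markers had reads in every library and summed to 136 and 231 CPM in Cis Stat6 KO, 76.5 and 412 in Cis KO, and 137 and 134.5 in WT. The sum hid opposite directions. Csf3r, the receptor that made up most of it in WT, stood at 64.2 and 53.9 CPM in Cis Stat6 KO, 61.8 and 61.1 in Cis KO, and 116 and 113 in WT. S100a9, a calcium-binding protein abundant in neutrophils, stood at 27.7 and 72.3 CPM in Cis Stat6 KO, 0.438 and 133 in Cis KO, and 1.35 and 1.24 in WT. With S100a8, Cxcr2 and Retnlg it was among 4 of 6 markers whose Cis Stat6 KO libraries lay above WT without overlap. Over all genes that share was 23.3%. The Ptgs2 libraries lay so too. Cis KO replicate 2, with the highest neutrophil sum and the fewest genes detected (15855), had 0 Ptgs2 counts. Cis KO replicate 1, with the lowest neutrophil sum, had 11. The median log2 fold change of the 6 markers was 1.70 in Cis Stat6 KO against WT. There 0 were called by edgeR, against 0.131% of all genes, and 4 had an unadjusted p under 0.05, against 5.36%.

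Of the 6 platelet markers, Gp6 was at 0 in all libraries and Ppbp in 4 of 6. Their sum was 6.10 and 7.16 CPM in Cis Stat6 KO, 0.656 and 3.93 in Cis KO, and 1.501 and 2.31 in WT, and came mostly from Pf4 in Cis Stat6 KO (5.71 and 6.83 CPM). The part of such cells in the cyclooxygenase levels was not tested.

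The upstream sequences of the cyclooxygenase genes and of Ptges are shown because these genes differed in direction between the genotypes. Each covers the 250 bases before the start that RefSeq annotates (GRCm38.p6, the assembly of mm10), on the coding strand, for Ptgs2 chr1:150099781-150100030 (+), for Ptgs1 chr2:36230176-36230425 (+) and for Ptges chr2:30903298-30903547 (-). Capitals mark every match to the motifs named after them.
Ptgs2: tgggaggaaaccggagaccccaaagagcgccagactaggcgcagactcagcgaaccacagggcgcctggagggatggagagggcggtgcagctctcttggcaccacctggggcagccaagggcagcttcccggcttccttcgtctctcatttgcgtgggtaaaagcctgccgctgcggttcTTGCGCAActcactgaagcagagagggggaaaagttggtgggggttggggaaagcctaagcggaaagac
Ptgs1: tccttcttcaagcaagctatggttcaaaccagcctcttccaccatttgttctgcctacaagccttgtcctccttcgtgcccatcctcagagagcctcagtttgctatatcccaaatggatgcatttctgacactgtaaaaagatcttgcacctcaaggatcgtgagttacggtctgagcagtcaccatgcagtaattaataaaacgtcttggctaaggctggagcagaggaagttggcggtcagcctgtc
Ptges: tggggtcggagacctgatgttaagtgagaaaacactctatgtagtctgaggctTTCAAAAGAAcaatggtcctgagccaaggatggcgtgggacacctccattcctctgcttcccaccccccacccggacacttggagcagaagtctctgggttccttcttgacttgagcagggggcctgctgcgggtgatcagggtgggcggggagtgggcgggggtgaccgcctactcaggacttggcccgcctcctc

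In this window 8 of the 10 genes had a RefSeq entry, and Alox5ap and Alox15 are named only. The STAT6-type motif, TTC and GAA with any 4 bases between them, which reads the same on both strands, occurred in Ptges (TTCAAAAGAA, from -197 to -188 relative to the start) and in Tbxas1 (TTCTGGGGAA, from -121 to -112). The Tbxas1 window, chr6:38918736-38918985, lies inside the gene as the files place it, and the RefSeq starts of Tbxas1, Hpgds and Lta4h do not open a GENCODE transcript. Among 32851 mouse promoters 5.85% held it. The STAT5-type motif TTCNNNGAA, held by 7.02% of promoters, and the kappaB-type motif, GGG and TTCC with any 3 bases between them, searched on both strands and held by 4.65%, occurred in none of the 8. The C/EBP-type palindrome TTGCGCAA occurred in Ptgs2 from -69 to -62 and in 0.164% of promoters. No matches overlapped each other, and the kappaB-type and C/EBP-type motifs were chosen after the values were seen. A match gives the letters of the window and no evidence of binding.

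Of the terminal prostanoid synthases, Ptges and Hpgds were lowest in Cis KO. Ptges (ENSMUSG00000050737, mm10 chromosome 2, 30889471 to 30903297, - strand), the inducible synthase of prostaglandin E, stood at 17.5 and 25.6 CPM in Cis Stat6 KO, 12.2 and 14.8 in Cis KO, and 34.1 and 35.6 in WT. The 3 genotypes did not overlap, and Cis Stat6 KO lay between the others. Its log2 fold change was -1.37 ± 0.26 in Cis KO against WT, 0.68 ± 0.25 in Cis Stat6 KO against Cis KO and -0.69 ± 0.25 in Cis Stat6 KO against WT. The edgeR adjusted p was 0.157, 0.244 and 0.828, and DESeq2 gave 0.000601 in Cis KO against WT. Ptges without Cis KO replicate 2 was at -1.51 ± 0.26 in Cis KO against WT and passed the edgeR test (adjusted p 0.0453), as it did without Cis KO replicate 1 (-1.25, adjusted p 0.012). Epithelial markers are given beside Ptges and Ptgs1, since both were lower in Cis Stat6 KO than in WT. All 5 had reads in every library and summed to 26.6 and 12.6 CPM in Cis Stat6 KO, 28.2 and 176 in Cis KO, and 71.0 and 81.4 in WT. Epcam, an epithelial adhesion molecule, stood at 7.46 and 3.15 CPM in Cis Stat6 KO, 3.36 and 4.41 in Cis KO, and 28.9 and 22.6 in WT. The Cis Stat6 KO libraries lay below WT without overlap for 4 of the 5, against 23.5% of all genes. In Cis KO against WT this held for 1 of the 5, against 25.9%, and Ptgs1 stood at 9.11 and 9.77 CPM in Cis KO. The part of epithelial cells in the Ptges and Ptgs1 levels was not tested.

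Hpgds, which makes prostaglandin D in blood-derived cells (ENSMUSG00000029919, mm10 chromosome 6, 65117293 to 65144908, - strand), stood at 12.7 and 20.5 CPM in Cis Stat6 KO, 6.50 and 2.26 in Cis KO, and 11.6 and 14.8 in WT. Both Cis KO libraries lay below the other 4, among which Cis Stat6 KO and WT overlapped. Hpgds was at a log2 fold change of 1.91 ± 0.53 in Cis Stat6 KO against Cis KO (edgeR adjusted p 0.186) and -1.58 ± 0.53 in Cis KO against WT (0.425). It was 0.33 ± 0.51 in Cis Stat6 KO against WT. The library that stood apart was the lower of the Cis KO pair. The values without it were 1.34 ± 0.34 and -1.02 ± 0.33, with edgeR adjusted p of 0.0932 and 0.325. When Cis KO replicate 1 was left out they were 2.88 and -2.56, and both passed (adjusted p 0.0023 and 0.00391).

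Mast cells are known to carry Hpgds and Ltc4s. Of the 7 mast cell and basophil markers with a row, Ms4a2, Fcer1a and Mcpt4 were at 0 in all 6 libraries. The markers summed to 20.4 and 20.2 CPM in Cis Stat6 KO, 0.406 and 6.28 in Cis KO, and 2.31 and 2.10 in WT. The Cis Stat6 KO sum came mostly from Hdc, the histamine-forming enzyme, at 19.0 and 19.5 CPM. The part of mast cells in the Hpgds level was not tested.

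Tbxas1, the thromboxane synthase (ENSMUSG00000029925, mm10 chromosome 6, 38875404 to 39084585, + strand), stood at 152 and 147 CPM in Cis Stat6 KO, 182 and 186 in Cis KO, and 150.4 and 187 in WT. The WT pair spanned most of the range of the other libraries. Its fold change on the log2 scale was -0.30 ± 0.18 in Cis Stat6 KO against Cis KO, where the libraries did not overlap, and 0.13 ± 0.18 and -0.17 ± 0.18 in Cis KO and in Cis Stat6 KO against WT. Adjusted p in edgeR was 0.393 to 1.

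In the leukotriene branch Alox5 was higher in Cis KO than in the other genotypes. Alox5 (ENSMUSG00000025701, mm10 chromosome 6, 116410077 to 116461178, - strand) stood at 167 and 118 CPM in Cis Stat6 KO, 297 and 317 in Cis KO, and 165 and 172 in WT. Cis KO did not overlap the others, while Cis Stat6 KO and WT overlapped. On the log2 scale the fold change was -1.11 ± 0.21 in Cis Stat6 KO against Cis KO and 0.86 ± 0.21 in Cis KO against WT, with edgeR adjusted p of 0.106 and 0.296 and DESeq2 adjusted p of 0.000329 and 0.0196. Without Cis KO replicate 2 the values were -1.07 ± 0.21 (edgeR adjusted p 0.0458) and 0.81 ± 0.21 (0.188). With replicate 1 left out in its place they were -1.14 and 0.89 (0.00694 and 0.0203).

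Alox5ap, the membrane protein that presents arachidonic acid to Alox5 (ENSMUSG00000060063, mm10 chromosome 5, 149264767 to 149288153, + strand), stood at 424 and 399 CPM in Cis Stat6 KO, 531 and 852 in Cis KO, and 526 and 486 in WT. Cis KO replicate 1 was just above the higher WT library, and replicate 2 was the highest of all. Alox5ap had log2 fold changes of -0.75 ± 0.25 in Cis Stat6 KO against Cis KO, 0.45 ± 0.25 in Cis KO against WT and -0.30 ± 0.25 in Cis Stat6 KO against WT, with edgeR adjusted p of 0.227, 0.494 and 1. Leaving out Cis KO replicate 2 gave -0.38 ± 0.15 and 0.07 ± 0.15 for the first and second (edgeR adjusted p 0.258 and 0.947). Leaving out replicate 1 gave -1.04 and 0.74, and both passed (0.00278 and 0.0113). Cis KO replicate 2 also had the highest neutrophil marker sum, 412 CPM, whose part in the Alox5ap level was not tested.

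Lta4h, the hydrolase that makes leukotriene B (ENSMUSG00000015889, mm10 chromosome 10, 93453411 to 93484874, + strand), was higher in both knockout genotypes. It stood at 129.8 and 119 CPM in Cis Stat6 KO, 129.9 and 124 in Cis KO, and 69.5 and 73.5 in WT. The 4 knockout libraries overlapped each other and lay above both WT libraries. Lta4h was at a log2 fold change of 0.80 ± 0.16 in Cis Stat6 KO against WT and of 0.83 ± 0.16 in Cis KO against WT, with edgeR adjusted p of 0.262 and 0.181 and DESeq2 adjusted p of 0.00332 and 0.00101. Between Cis Stat6 KO and Cis KO it was -0.03 ± 0.16 (edgeR adjusted p 0.946). Lta4h was at 0.86 ± 0.15 in Cis KO against WT without Cis KO replicate 2 (adjusted p 0.0508) and at 0.78 without replicate 1 (0.00909). Against WT, Cis Stat6 KO passed for this gene without either of those libraries (adjusted p 0.0253 and 0.0304) and with only these 2 genotypes in the fit (0.0318). It did not pass without WT replicate 1 or 2 (1 and 1) or Cis Stat6 KO replicate 1 or 2 (0.924 and 1).

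Ltc4s, the synthase of cysteinyl leukotrienes (ENSMUSG00000020377, mm10 chromosome 11, 50236461 to 50238616, - strand), stood at 69.9 and 57.4 CPM in Cis Stat6 KO, 77.0 and 182 in Cis KO, and 52.7 and 69.2 in WT. The high value was that of Cis KO replicate 2. Ltc4s had a log2 fold change of -1.02 ± 0.40 in Cis Stat6 KO against Cis KO and of 1.09 ± 0.40 in Cis KO against WT (edgeR adjusted p 0.256 and 0.437). These values were -0.28 ± 0.21 and 0.34 ± 0.21 without that library (0.569 and 0.714), and -1.504 and 1.561 without Cis KO replicate 1, where both passed (0.00252 and 0.00278). It was 0.06 ± 0.40 in Cis Stat6 KO against WT. An antisense gene, Gm26542, shares 268 exon bases with Ltc4s and had at most 304 counts in a library, against at least 2792 for Ltc4s. Whether the counting used strand is not stated by the labels or headers, so reads from this overlap cannot be told apart.

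Alox15, a lipoxygenase that interleukin 4 is known to induce in several macrophage types (ENSMUSG00000018924, mm10 chromosome 11, 70344152 to 70352031, - strand), was near the limit of detection in all but 1 library. It had 32 and 0 counts in Cis Stat6 KO, 13 and 208 in Cis KO, and 16 and 8 in WT. The 208 counts, or 4.75 CPM, were in Cis KO replicate 2, and the other 5 libraries ranged from 0 to 0.462 CPM. Alox15 was at a log2 fold change of -3.38 ± 1.99 in Cis Stat6 KO against Cis KO, 3.64 ± 2.02 in Cis KO against WT and 0.26 ± 1.87 in Cis Stat6 KO against WT (edgeR adjusted p 0.395, 0.492 and 1). Leaving out that library turned the first and second to 0.20 ± 2.29 and 0.05 ± 2.27 (0.996 and 1), which reversed the direction of the first.

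Reticulocytes are known to carry Alox15, and eosinophils as well. All 5 erythroid markers had reads in every library, and their sum was 353.5 and 42.7 CPM in Cis Stat6 KO, 15.0 and 38640 in Cis KO, and 200 and 191.5 in WT. The 4 B cell markers summed to 49.2 CPM in Cis KO replicate 2 and at most 1.09 in the other libraries. The 4 eosinophil markers summed to at most 0.466 CPM in any library, with Epx and Il5ra at 0 in 5 and 6 libraries, and all 4 were at 0 in Cis KO replicate 2. The part of red cell precursors in the Alox15 counts was not tested.

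**Figure D3:**
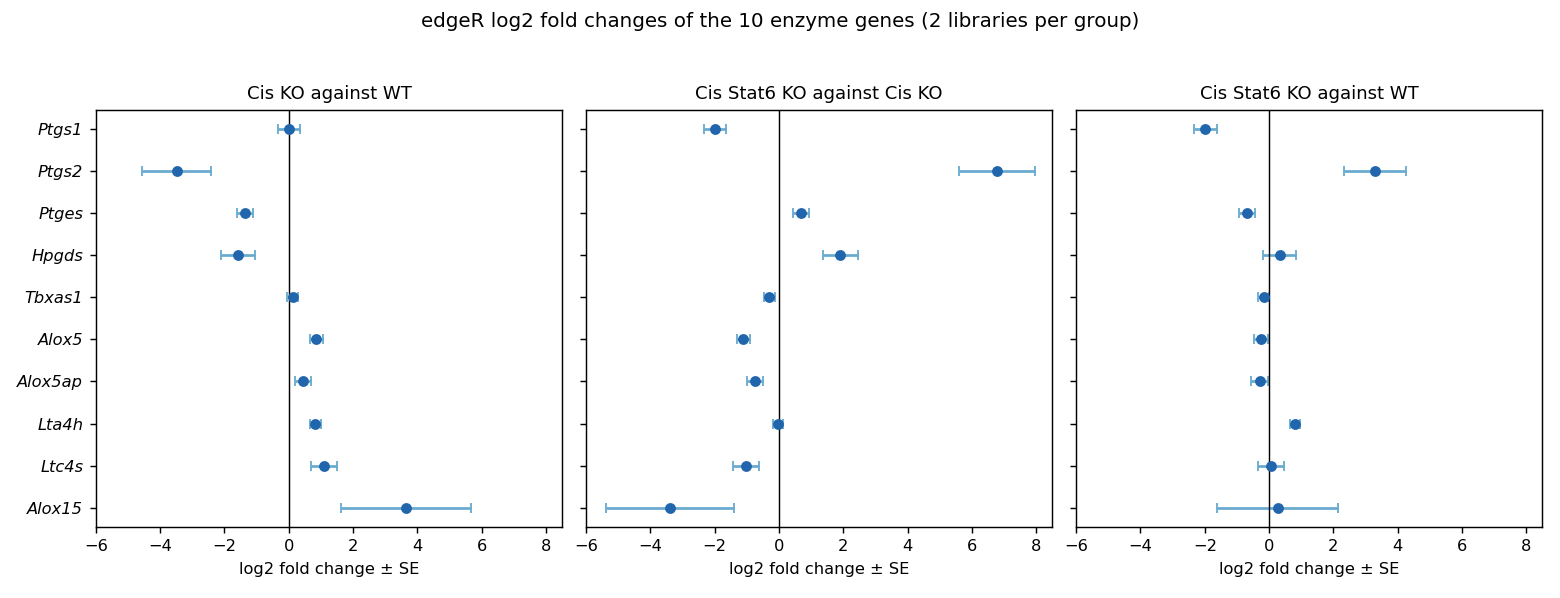
Log2 fold changes of the 10 enzyme genes (horizontal axes; bars, SE; 2 libraries per group) in Cis KO against WT, Cis Stat6 KO against Cis KO, and Cis Stat6 KO against WT. Ptgs2 was at -3.48, 6.78 and 3.30 in these panels and Lta4h at 0.83, -0.03 and 0.80; none of the 30 values had an edgeR adjusted p under 0.05.

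Counted over the family, 0 of the 10 genes were called by edgeR in Cis KO against WT, where 0.274% of all tested genes were called. Of the 10 genes, 6 had an unadjusted p under 0.05, against 11.1% of all genes, and 4 were called by DESeq2, against 3.18%. The Cis KO and WT libraries did not overlap for 7 of the 10 genes, 4 higher and 3 lower in Cis KO, and for 47.4% of all genes, 21.4% higher and 25.9% lower. The 3 lower genes, Ptgs2, Ptges and Hpgds, belong to the prostaglandin branch, and the 4 higher ones, Alox5, Alox5ap, Lta4h and Ltc4s, to the leukotriene branch. Ptgs1 and Tbxas1, also enzymes of prostanoid synthesis, overlapped, at log2 fold changes of 0.008 and 0.125. Without Cis KO replicate 2, Alox5ap was at 0.07 and Ltc4s at 0.34. The median log2 fold change of the 10 genes was 0.29, against -0.05 over all genes. Without Cis KO replicate 2, edgeR called 1 of the 10 genes, against 1.02% of all genes, and without replicate 1 it called 7, against 28.8%.

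Cis Stat6 KO against Cis KO also had 0 of 10 genes called by edgeR, against 0.358% of all genes. An unadjusted p under 0.05 was reached by 7 of 10, against 18.3%, and DESeq2 called 4, against 8.75%. The libraries did not overlap for 8 of 10 genes, 3 higher (Ptgs2, Ptges and Hpgds) and 5 lower (Ptgs1, Tbxas1, Alox5, Alox5ap and Ltc4s) in Cis Stat6 KO, and for 50.4% of all genes, 27.9% higher and 22.5% lower. The median was -0.52, against 0.05. Without Cis KO replicate 2, 3 of the 10 genes were called by edgeR, against 2.68% of all genes, and without replicate 1, 6 were called, against 32.2%. This comparison and the one of Cis KO with WT share the Cis KO libraries, so their opposite signs are not independent. The comparison of Cis Stat6 KO with WT shares 1 group with each of them.

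In Cis Stat6 KO against WT the count called by edgeR was again 0 of 10, against 0.131% of all genes, with 4 at an unadjusted p under 0.05, against 5.36%, and 3 called by DESeq2 (Ptgs1, Ptgs2 and Lta4h), against 1.9%. Here 5 of 10 genes did not overlap, 2 higher (Ptgs2 and Lta4h) and 3 lower (Ptgs1, Ptges and Alox5ap), near the 46.8% of all genes, of which 23.3% were higher and 23.5% lower. The median log2 fold change was -0.06, against -0.003 over all genes. Leaving out either Cis KO library brought 3 of 10 past the edgeR test, against 1.65% of all genes without replicate 1 and 1.9% without replicate 2. Without any 1 of the WT or Cis Stat6 KO libraries, 0 of 10 passed in this or either other comparison. The common coefficient of variation between replicates was 50.3%, on 3 residual degrees of freedom.

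Beyond the 10 enzymes, 79 further genes of the pathway had a row, and 61 of them were tested. Unadjusted p was under 0.05 for 22 of the 61 in Cis Stat6 KO against Cis KO, where it was under 0.05 for 18.3% of all genes. It was so for 7 in Cis Stat6 KO against WT, against 5.36% of all genes, and for 23 in Cis KO against WT, against 11.1%. Ptgr1 was the gene called by edgeR among them, lower in Cis KO and higher in Cis Stat6 KO against Cis KO. Ptgr1 encodes a reductase that inactivates leukotriene B and oxidised prostaglandins. It stood at 74.5 and 85.2 CPM in Cis Stat6 KO, 25.8 and 23.9 in Cis KO, and 70.5 and 68.5 in WT. Ptgr1 fell by 1.48 ± 0.18 (log2) in Cis KO against WT (edgeR adjusted p 0.0475) and rose by 1.68 ± 0.18 in Cis Stat6 KO against Cis KO (0.0308). In Cis Stat6 KO against WT it was at 0.20 ± 0.18 (adjusted p 1). Both calls were kept without either Cis KO library. They were lost without WT replicate 1 (adjusted p 0.402 and 0.0932), WT replicate 2 (0.388 and 0.102), Cis Stat6 KO replicate 1 (0.156 and 0.138) and Cis Stat6 KO replicate 2 (0.163 and 0.296), while the log2 values stayed between -1.58 and -1.43 and between 1.59 and 1.77 under all alternatives.

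Of the 19 tested genes that supply arachidonic acid or remodel the lipids that hold it, edgeR called 0 in any comparison, and unadjusted p was under 0.05 for 7 in Cis Stat6 KO against Cis KO (18.3% of all genes), 6 in Cis KO against WT (11.1%) and 3 in Cis Stat6 KO against WT (5.36%). Lpcat2, an acyltransferase that also makes platelet-activating factor, stood at 66.2 and 103 CPM in Cis Stat6 KO, 31.1 and 31.5 in Cis KO, and 71.8 and 70.1 in WT. Its log2 fold change was 1.43 ± 0.24 in Cis Stat6 KO against Cis KO and -1.18 ± 0.24 in Cis KO against WT (edgeR adjusted p 0.0883 and 0.195). Acsl4, which couples arachidonic acid to coenzyme A, stood at 58.5 and 87.0 CPM in Cis Stat6 KO and 29.9 and 19.2 in Cis KO, a log2 difference of 1.57 ± 0.30 (adjusted p 0.105). Pla2g7, which degrades platelet-activating factor, was low in both knockout genotypes. It stood at 30.1 and 27.7 CPM in Cis Stat6 KO, 30.1 and 13.9 in Cis KO, and 118 and 105.5 in WT. Its log2 fold change was -1.95 ± 0.36 in Cis Stat6 KO against WT and -2.34 ± 0.37 in Cis KO against WT (adjusted p 0.197 and 0.0908). Pla2g15, the lysosomal phospholipase, was at -0.50 ± 0.19 in Cis Stat6 KO against WT (0.867).

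Among 10 tested further synthases and lipoxygenases edgeR called 0, and unadjusted p was under 0.05 for 4 in Cis Stat6 KO against Cis KO (18.3% of all genes), 3 in Cis KO against WT (11.1%) and 1 in Cis Stat6 KO against WT (5.36%). Aloxe3, a hydroperoxide isomerase best known from skin, stood at 9.46 and 18.1 CPM in Cis Stat6 KO, 0.0625 and 0 in Cis KO, and 0.414 and 0.0877 in WT. Its log2 fold change was 8.52 ± 1.22 in Cis Stat6 KO against Cis KO and 5.79 ± 1.02 in Cis Stat6 KO against WT (edgeR adjusted p 0.0621 and 0.175). Its adjusted p in Cis Stat6 KO against Cis KO was under 0.05 with any 1 of the WT or Cis KO libraries left out (0.0398, 0.0467, 0.00225 and 0.0133). It was 0.186 without Cis Stat6 KO replicate 1, 0.450 without replicate 2 and 0.467 with limma-voom weights, and its fitted log2 fold change without Cis KO replicate 1, where the remaining library had 0 counts, was 12.6. Akr1b8, an aldo-keto reductase, was at 1.94 ± 0.36 in Cis Stat6 KO against Cis KO and -1.60 ± 0.35 in Cis KO against WT (0.101 and 0.239). Ptges2, another prostaglandin E synthase, was at 0.90 ± 0.31 in Cis KO against WT (0.429). It was 0.44 ± 0.21 without Cis KO replicate 2 (0.579) and 1.23 ± 0.20 without replicate 1 (0.00499). Cbr1, a carbonyl reductase of prostaglandin E, was at 0.39 ± 0.27 in Cis Stat6 KO against WT (adjusted p 1).

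Of the 17 receptors listed, not all of them for eicosanoids alone, 9 were tested and 0 were called. In Cis Stat6 KO against Cis KO, Cis KO against WT and Cis Stat6 KO against WT, 2, 3 and 0 had an unadjusted p under 0.05. The shares of all genes were 18.3%, 11.1% and 5.36%. The 3 in Cis KO against WT were Ptgir, Ltb4r1 and the formyl peptide receptor Fpr2, which was at -0.69 ± 0.28 (edgeR adjusted p 0.438). Ptgir, the prostacyclin receptor, stood at 2.89 and 3.70 CPM in Cis Stat6 KO, 7.74 and 6.80 in Cis KO, and 1.95 and 1.64 in WT. Its log2 fold change was -1.14 ± 0.39 in Cis Stat6 KO against Cis KO and 2.02 ± 0.40 in Cis KO against WT (edgeR adjusted p 0.229 and 0.181). Ltb4r1, the leukotriene B receptor, was at -2.78 ± 0.98 and 3.45 ± 1.02 in these comparisons (0.232 and 0.400), with 5.50 CPM in Cis KO replicate 2 and at most 1.00 in any other library. Without that library Ltb4r1 was at -1.09 ± 0.94 and 1.76 ± 0.94 (0.619 and 0.646). Cysltr1, the cysteinyl leukotriene receptor, was at -0.40 ± 0.42 in Cis Stat6 KO against WT (adjusted p 1).

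Among the 14 tested genes of inactivation and transport, Ptgr1 aside, 13 were not called by edgeR in any comparison. Over this list 5, 6 and 2 genes had an unadjusted p under 0.05 in the order of comparisons just given, beside the same shares of all genes. Cyp4f18, which oxidises leukotriene B in neutrophils, stood at 98.8 and 79.5 CPM in Cis Stat6 KO, against 14.5 and 10.6 in WT (log2 2.83 ± 1.18, adjusted p 0.932), and at 7.67 and 179 in Cis KO. The libraries with high Cyp4f18 were those with high S100a9, at 27.7 and 72.3 CPM in Cis Stat6 KO and 133 in Cis KO replicate 2, against 0.438 in Cis KO replicate 1 and 1.35 and 1.24 in WT. S100a8, Retnlg and Cxcr2 were also highest in these libraries, and Csf3r and Ly6g were not. Csf3r stood at 64.2 and 53.9 CPM in Cis Stat6 KO and 116 and 113 in WT. Ly6g stood at 0.116 and 0.720 CPM in Cis Stat6 KO, 0.156 and 4.38 in Cis KO, and 0.293 and 0.0585 in WT. It was thus highest in Cis KO replicate 2. Among the libraries with high Cyp4f18, only Cis Stat6 KO replicate 1 was below a WT library for Ly6g. The part of neutrophils in the Cyp4f18 level was not tested. Ggt5, which trims leukotriene C to leukotriene D, was at -0.89 ± 0.26 in Cis Stat6 KO against WT (0.566).

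Of the 9 related glutathione transferases and cofactors, all tested, 0 were called by edgeR and 4, 5 and 1 had an unadjusted p under 0.05 in that order, beside the same shares. Cotl1 is known to bind Alox5. It stood at 694 and 576 CPM in Cis Stat6 KO, 1214 and 1940 in Cis KO, and 826 and 816 in WT, with log2 fold changes of -1.31 ± 0.27 in Cis Stat6 KO against Cis KO and 0.94 ± 0.27 in Cis KO against WT (edgeR adjusted p 0.121 and 0.373). Without Cis KO replicate 2 these were -0.94 ± 0.16 (0.0301) and 0.57 ± 0.17 (0.249). Mgst2, a relative of Ltc4s that can also make leukotriene C, was at 1.86 ± 0.51 in Cis KO against WT (0.367), and at 1.05 ± 0.35 without Cis KO replicate 2 (0.351). Mgst1, a microsomal glutathione transferase, was at 1.11 ± 0.31 in Cis Stat6 KO against Cis KO (0.188), and at 0.71 ± 0.17 without Cis KO replicate 2 (0.0834).

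Other named pathway genes also passed the edgeR test once Cis KO replicate 2 was left out. In Cis Stat6 KO against Cis KO these were Lpcat2 (adjusted p 0.0376), Acsl4 (0.0448) and Akr1b8 (0.00319), and in Cis KO against WT Pla2g7 (0.00454) and Akr1b8 (0.00783). In Cis Stat6 KO against WT, Pla2g7, Aloxe3 and Cyp4f18 passed without that library and without Cis KO replicate 1. None of them passed there when any WT or Cis Stat6 KO library was left out. Over all alternatives their log2 fold changes ranged from -2.027 to -1.876, from 1.474 to 7.253 and from 2.595 to 3.065. Leaving out Cis KO replicate 1, in whose absence 28.8% of all genes were called in Cis KO against WT and 32.2% in Cis Stat6 KO against Cis KO, also brought past the test Lpcat2, Akr1b8, Ltb4r1 and Cotl1 in both, Pla2g7, Ptges2, Ptgir and Mgst2 in Cis KO against WT, and Acsl4 and Mgst1 in Cis Stat6 KO against Cis KO.

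**Figure D4:**
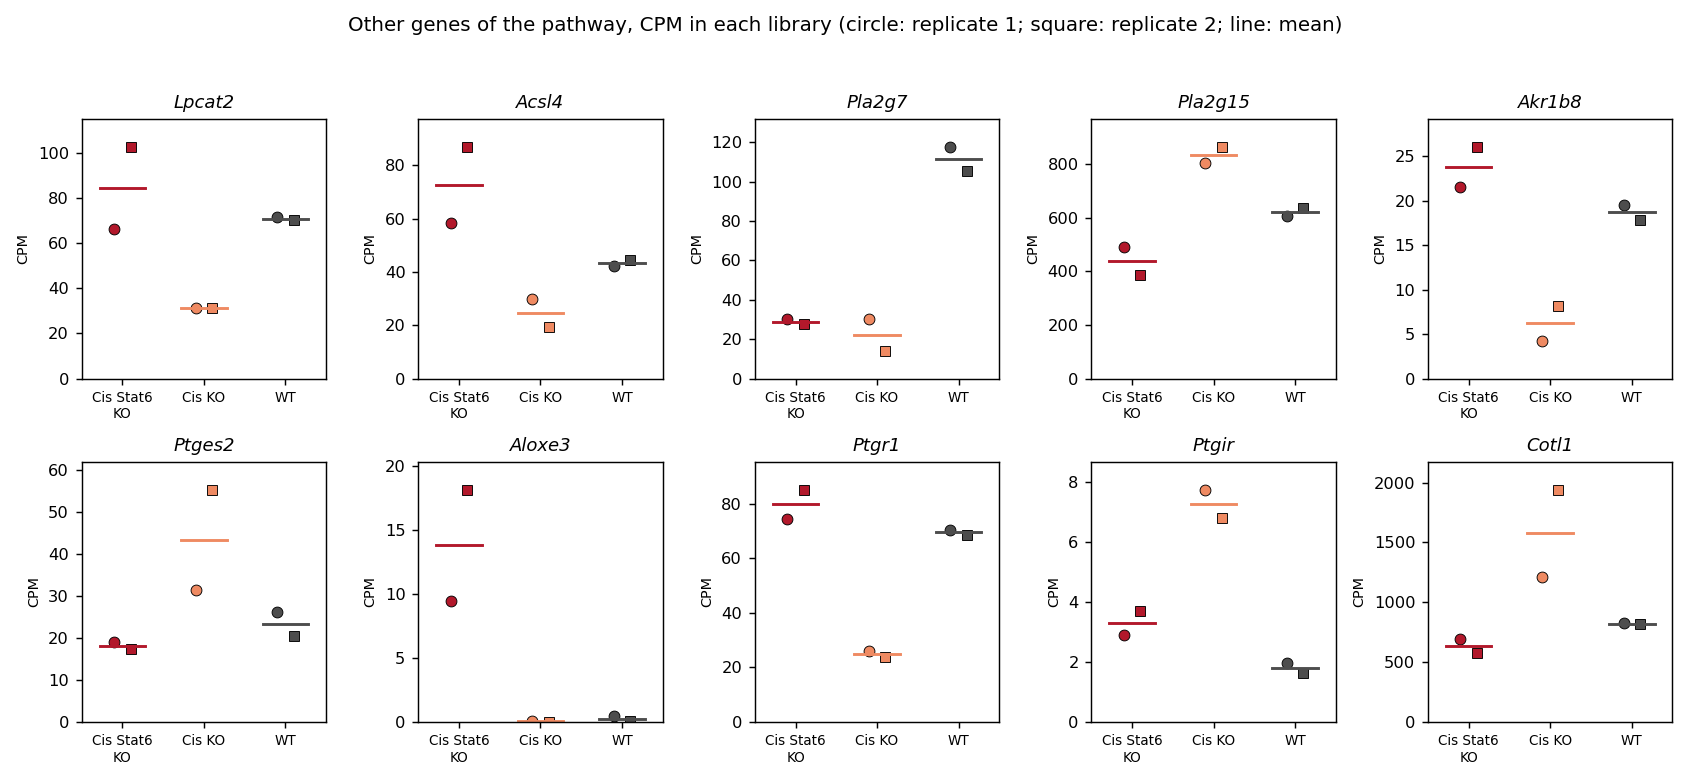
CPM of 10 further pathway genes in each library (vertical axes, linear, each from 0; columns: Cis Stat6 KO, Cis KO, WT; circle, replicate 1; square, replicate 2; line, mean of 2). Ptgr1 and Lpcat2 were lowest in Cis KO, at 23.9 to 25.8 and 31.1 to 31.5 CPM, and Ptgir and Cotl1 were highest there.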

How the data were processed

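RNA of bronchoalveolar lavage cells was measured in 6 mouse libraries, 2 per genotype. The authors deposited a count per gene and an FPKM value per gene, named so per the file headers. The counts were whole numbers with a different total in each library, and the FPKM values, scaled to gene length and library total, had been rounded by the authors. The genome build was mm10, per the submitters' processing notes, and the aligner, counter and use of strand were not stated. Counting floors cover counting error only. Of 40564 gene IDs, 40415 were in GENCODE M21.

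Counts of all 6 libraries entered 1 edgeR 4.0.16 fit in R 4.3.3 (TMM factors 0.863 to 1.077, filterByExpr, genotype as the factor). The quasi-likelihood F test was two-sided, with Benjamini-Hochberg adjustment over 16765 genes and a threshold of 0.05; all 10 enzyme genes passed the filter. Standard errors are the fold change over the square root of F. FPKM served to compare genes. Alternatives included DESeq2 1.42.0 and limma 3.58.1. The test was tried on simulated counts.

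All enzyme genes were named in every comparison. Of each pathway list, up to 4 called genes or the 2 with the smallest p were named. Of the marker genes, Hdc, Pf4, Chil3, Siglecf, Ear2, Csf3r, S100a9, Ly6g and Epcam were picked after their values were seen. The members, lists and tests were chosen with earlier results of these data known. Of the symbols listed, 3 had no row, and Dpep2, with 2 IDs, was taken at the ID with more counts.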

Additional observations from a re-analysis of the deposited data

How the results depend on the processing

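Across the alternatives, 396 of 471 values of the 10 enzyme genes kept their direction and their side of 0.05, 55 moved past the threshold and 20 reversed. The cause was not tested. Called genes in Cis Stat6 KO against Cis KO, in Cis Stat6 KO against WT and in Cis KO against WT numbered 60, 22 and 46. They were 1472, 320 and 535 with DESeq2, 1840, 385 and 1021 without a filter, and 5, 277 and 6 with only the 2 genotypes compared. On log2(FPKM + 1) they were 191, 52 and 74, and 2, 1 and 2 without a filter. On log2(FPKM + 0.1) they were 99, 35 and 59, and with limma-voom quality weights 23, 470 and 38. The higher and lower calls were 9 and 14 with those weights and 40 and 20 with edgeR in Cis Stat6 KO against Cis KO, and 27 and 11 against 20 and 26 in Cis KO against WT. Leaving out 1 library gave 4 to 5999, 0 to 350 and 3 to 5349 called genes. Without Cis KO replicate 1 the median log2 fold change of all genes was 0.219 in Cis Stat6 KO against Cis KO and -0.237 in Cis KO against WT.

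With the replicate number as a block the counts were 28, 12 and 24, and 0 enzyme genes were called. The deviations of same-numbered libraries correlated across genes at -0.054 to 0.010. This cannot show whether they share more than a number, since Cis KO replicate 2 stood apart, and the labels do not say.

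Reversed values were near 0 or low in counts. Ptgs1 in Cis KO against WT was at -0.005 without a filter, -0.001 with the block, -0.07 on log2(FPKM + 1) with or without a filter and -0.097 on log2(FPKM + 0.1). Lta4h in Cis Stat6 KO against Cis KO was at 0.018 on log2(FPKM + 1) with or without a filter and 0.019 on log2(FPKM + 0.1). Alox15 in Cis Stat6 KO against WT was at -1.086 with limma-voom weights. With 1 library left out, Ptgs1 ranged from -0.108 to 0.121 and Tbxas1 from -0.03 to 0.286 in Cis KO against WT. In Cis Stat6 KO against Cis KO Alox15 ranged from -10.117 to 0.20 and Lta4h from -0.097 to 0.038. In Cis Stat6 KO against WT Hpgds ranged from -0.061 to 0.621, Alox15 from -6.49 to 1.231 and Ltc4s from -0.127 to 0.273.

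For Ptgr1, adjusted p was also over 0.05 in Cis Stat6 KO against Cis KO and in Cis KO against WT with limma-voom weights (0.0574 and 0.0698), with only the genotypes compared (0.180 and 0.197) and on log2(FPKM + 1) without a filter (0.124 and 0.159). It was 0.0659 and 0.105 with the replicate block.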
